A study of Mus musculus with 4 samples.

Results

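The 10 genes Dcx, Sox11, Sox4, Igfbpl1, Dpysl3, Stmn1, Marcksl1, Tmsb10, Calb2 and Tubb3, which mark immature neurons or build their cytoskeleton, were followed across 4 groups of adult male C57Bl/6 mice in RNA of the dissected dentate gyrus (DG). They were measured by all probe sets annotated to 1 of these symbols alone, which are 29 of 20380 probe sets with a single symbol and stand for 10 of 12393 genes. The first group received 11 electroconvulsive stimulations (ECS, brief seizures evoked through ear clips under isoflurane anaesthesia) and was dissected 1 h after the last. The second received 10 ECS and was dissected 48 h after the last. These mice had a sham session before dissection. The third received a single ECS and was dissected after 1 h, and the fourth, the sham group, was handled in the same way without current and dissected after 1 h. Repeated ECS ran over at most 3 weeks, with 4 sessions in each. RNA of 3 mice was pooled for the 1 array of each group, so the data hold no spread between animals, and the differences below are differences between 4 arrays without a test. The free-text descriptions of the single, 10 and 11 ECS samples name other treatments than their titles, and groups were taken from the titles.

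New granule cells (GCs) arise throughout life in the subgranular zone of the DG, and on their way to maturity they pass through a stage in which Dcx, Sox11, Dpysl3 and, in mice, Calb2 are transiently expressed. In these young neurons, microtubules and actin filaments are rebuilt continuously as neurites and growth cones extend. Mature GCs lose these proteins and gain others such as calbindin. In the DG as a whole, however, Calb2 is also present in mossy cells, interneurons and Cajal-Retzius cells, and Stmn1, Marcksl1, Tmsb10 and Tubb3 are not restricted to young neurons. In such bulk tissue, more cells of a type and more RNA per cell cannot be told apart.

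The 4 arrays were close in depth of signal. Their trimmed mean signals were 207 after 11 ECS, 217 after 10 ECS, 214 after a single ECS and 239 in sham, and rank correlations between arrays were 0.975 to 0.981. The activity gene Arc had signals of 1360 after 11 ECS, 67.5 after 10 ECS, 3570 after a single ECS and 119 in sham, high only on the 2 arrays dissected 1 h after a seizure. The GC markers Prox1 and Neurod1, the 2 on the array of 4 listed, together summed to 1301 after 11 ECS, 1004 after 10 ECS, 1371 after a single ECS and 1155 in sham. Nearly all of this sum was Neurod1, which is also listed below among the neurogenesis stage genes. Prox1 had 62.7 after 11 ECS, 57.1 after 10 ECS, 69.8 after a single ECS and 68.6 in sham. Signals are MAS5 values in linear units of fluorescence. Each gene is given by its brightest probe set. Anything dimmer than 12, was raised to 12, which is called the floor. The median gene had a log2 ratio of -0.11 for 11 ECS over 10 ECS, 0.00 for 11 ECS over single ECS, -0.14 for 10 ECS over sham and -0.24 for single ECS over sham, so the sham array ran slightly brighter than the others. As the only measure of error, probe sets of 1 gene scattered with a pooled SD of 0.27 to 0.29 (log2). It covers differences between probe sets of the same arrays, and neither amplification and hybridization nor the animals. Single members differed from this pooled value. For 10 ECS over sham their SD ran from 0.10 (Stmn1) to 0.92 (Tmsb10). For 11 ECS over single ECS it ran from 0.14 (Stmn1) to 0.77 (Dpysl3).

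Promoter sequence, the 250 bases before the annotated start in the RefSeq table (build GRCm38.p6), is shown for Sox11, Tmsb10 and Dcx. Sox11 was the gene that was high 1 h after ECS. Tmsb10 and Dcx were high on both arrays of repeated ECS by their brightest probe sets. The window of Sox11 is chr12:27342719-27342968, that of Tmsb10 chr6:72958749-72958998, the most upstream of its 3 annotated starts, and that of Dcx chrX:143933220-143933469, the more upstream of its 2 annotated starts, all on the minus strand. Capitals mark GC boxes (GGGCGG) and CCAAT boxes (CCAAT) on either strand.
Sox11: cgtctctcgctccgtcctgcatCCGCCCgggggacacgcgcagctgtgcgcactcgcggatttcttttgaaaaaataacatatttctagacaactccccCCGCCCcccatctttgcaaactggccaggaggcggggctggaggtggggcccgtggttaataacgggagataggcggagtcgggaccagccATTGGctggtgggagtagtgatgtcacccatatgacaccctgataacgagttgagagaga
Tmsb10: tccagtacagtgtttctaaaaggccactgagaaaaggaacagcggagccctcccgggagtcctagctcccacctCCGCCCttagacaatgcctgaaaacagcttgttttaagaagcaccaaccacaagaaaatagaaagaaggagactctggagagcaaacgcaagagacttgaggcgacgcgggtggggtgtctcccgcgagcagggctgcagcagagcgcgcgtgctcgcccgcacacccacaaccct
Dcx: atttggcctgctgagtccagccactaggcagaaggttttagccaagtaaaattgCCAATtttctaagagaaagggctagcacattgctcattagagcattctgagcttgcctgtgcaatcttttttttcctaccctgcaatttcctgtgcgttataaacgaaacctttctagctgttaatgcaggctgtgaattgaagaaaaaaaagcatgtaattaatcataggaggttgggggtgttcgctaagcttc
In the Sox11 window, GC boxes begin 228 and 151 bases before the start and a CCAAT box 60 bases before it, all on the other strand. The Tmsb10 window holds 1 GC box, 176 bases before the start, and the Dcx window 1 CCAAT box, 196 bases before it. The window of the other Dcx start held neither motif, and those of the other Tmsb10 starts held GC boxes. Both motifs are common, a GC box being present in 32.7% and a CCAAT box in 33.8% of 32851 mouse promoter windows of this length. Promoters were found for 6 of the 10 genes (Dcx, Sox11, Sox4, Marcksl1, Tmsb10 and Tubb3), and a gene was counted if a window of any of its starts matched. The cAMP response element TGACGTCA, the AP-1 site TGANTCA and the CArG box, searched on both strands, matched none of the 6, against 1.55%, 6.75% and 1.47% of all windows. The EGR site GCGNGGGCG, which can overlap a GC box, matched the window of Tubb3 alone (4.7% of all windows), and the E-box CANNTG matched 4 of the 6 (66.2% of all windows). A match in these windows describes letters and not binding.

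A pair of patterns ran through the 10 genes. These genes were chosen with earlier results of these data known, so their counts against all genes are a description and not independent evidence. By their brightest probe sets, Tmsb10, Igfbpl1, Dcx and Dpysl3 were higher on both arrays of repeated ECS than after a single ECS and in sham. This held whether repeated ECS was taken 1 h or 48 h after the last stimulation. A dimmer probe set of Tmsb10, of Dcx and of Dpysl3 did not follow this pattern. Sox11 instead was high on both arrays taken 1 h after a seizure, and highest where that seizure was the 11th. Also by brightest probe sets, both arrays of repeated ECS lay above both others for 7 of the 10 genes. These were Dcx, Sox4 (630.7 after 11 ECS against 626.3 in sham), Igfbpl1, Dpysl3, Tmsb10, Calb2 and Tubb3. The share was 8.72% of the 10450 genes measured. The reverse, both below both others, held for Marcksl1 alone, against 19.3% of genes. Sox11 and Stmn1 overlapped between the pairs of arrays.

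**Figure D1:**
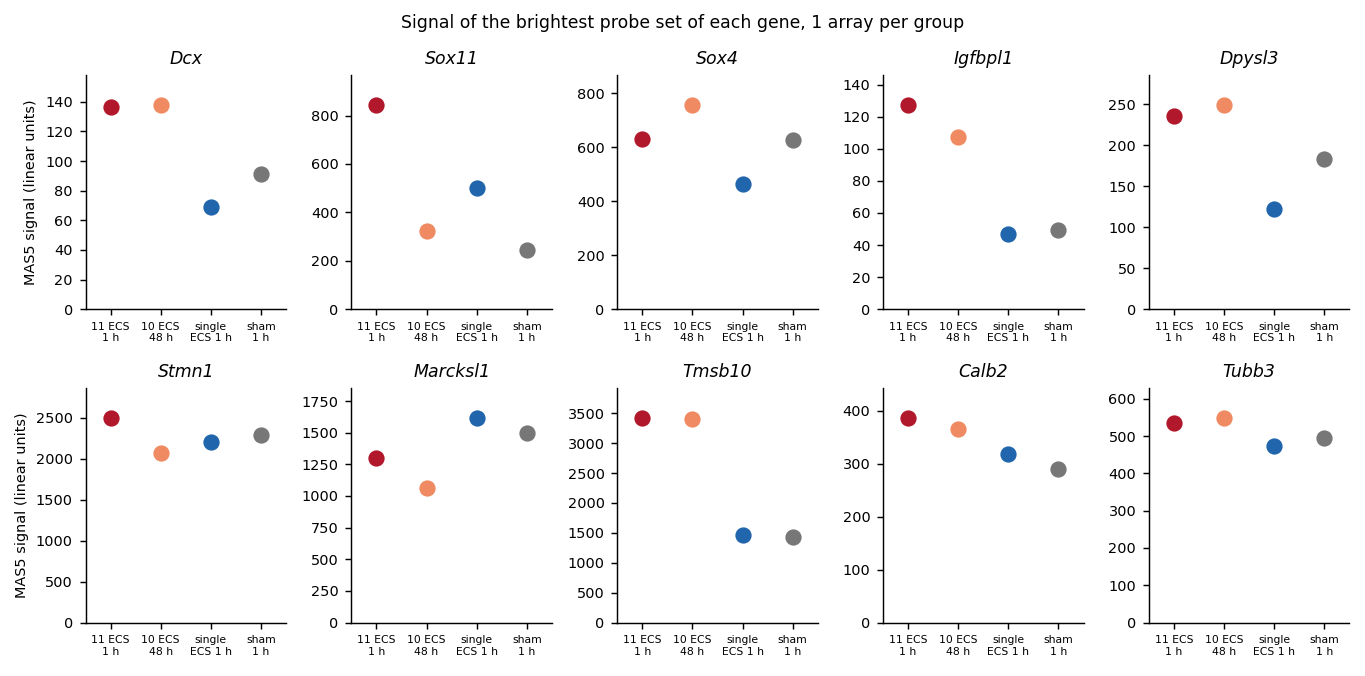
MAS5 signal (linear units, axis starting at 0) of the brightest probe set of each of the 10 genes, with 1 point per array for 11 ECS at 1 h, 10 ECS at 48 h, single ECS at 1 h and sham at 1 h. Tmsb10 stands at 3414 and 3397 after 11 and 10 ECS and at 1456 and 1433 after a single ECS and in sham, while Sox11 is highest, at 843.0, after 11 ECS.

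The difference after earlier ECS was read in a pair of comparisons that share no array. These were 11 ECS over single ECS (both 1 h after a seizure) and 10 ECS over sham (neither shortly after one). Mice of the single ECS and sham groups had a single session. Earlier ECS therefore cannot be told apart from the number of handling and anaesthesia sessions or from the time over which they ran. At least 1.5-fold higher after 11 ECS than after a single ECS were 5 of the 10 genes, namely Igfbpl1, Tmsb10, Dcx, Dpysl3 and Sox11, against 4.34% of 9971 genes, and 0 were as much lower, against 4.22%. After 10 ECS, 3 of the 10 were at least 1.5-fold higher than in sham, Tmsb10, Igfbpl1 and Dcx, against 2.94% of 10203 genes, and 0 were as much lower, against 7.16%. These 3 passed the limit in both comparisons, as did 0.782% of 9724 genes, and 0 of the 10 were lower in both, against 1.14%. Among 7429 genes with a mean signal of at least 4 times the floor, which all 3 have, 0.404% passed in both. The median log2 ratio of the 10 genes was 0.60 for 11 ECS over single ECS and 0.37 for 10 ECS over sham, or 0.60 and 0.50 above the medians of all genes. With each gene given by the median over its probe sets, the first of these shifts was 0.34.

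**Figure D2:**
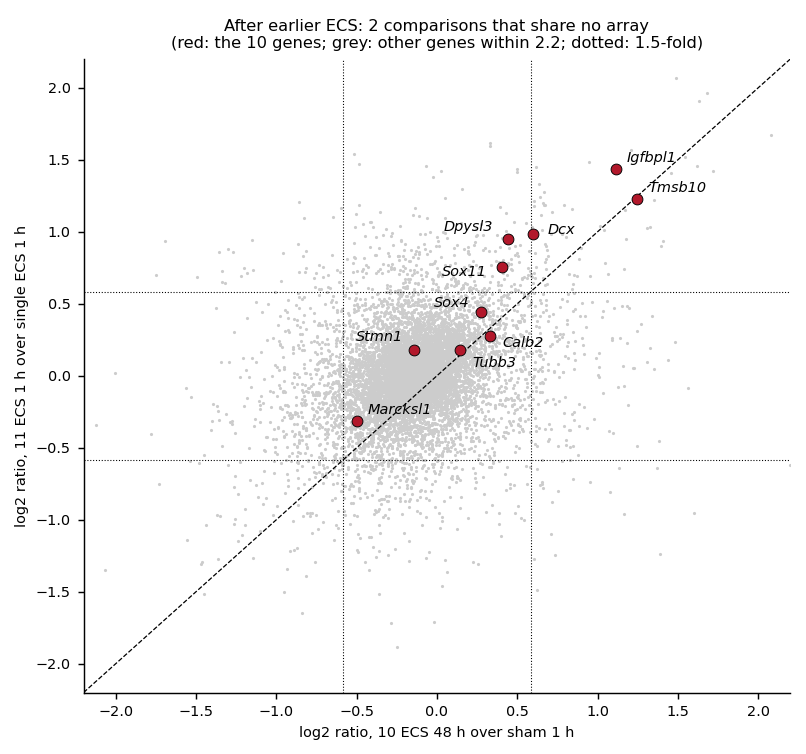
Log2 ratio of 11 ECS over single ECS (vertical) against that of 10 ECS over sham (horizontal), with 1 point per gene, the 10 genes in red and genes beyond 2.2 not drawn. Tmsb10 (1.23 vertical, 1.25 horizontal) and Igfbpl1 (1.44 vertical, 1.11 horizontal) stand at the upper right, Dcx, Dpysl3 and Sox11 follow, and Marcksl1 alone of the 10 lies below 0 on both axes.

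Of the actin-side genes, Tmsb10, whose product thymosin beta 10 binds actin monomers and keeps them from polymerizing, had the most even difference. Its signals were 3413.5 after 11 ECS, 3397.0 after 10 ECS, 1456.3 after a single ECS and 1432.8 in sham. The 2 arrays of repeated ECS were thus nearly equal, as were the 2 others, with no overlap between the pairs. It was 2.34-fold higher after 11 ECS than after a single ECS and 2.37-fold higher after 10 ECS than in sham, and 33 and 32 genes had a higher ratio in these comparisons. A dimmer probe set had signals of 427.6 after 11 ECS, 447.3 after 10 ECS, 202.9 after a single ECS and 180.2 in sham, and another had 122.9 after 11 ECS, 107.6 after 10 ECS, 40.6 after a single ECS and 51.7 in sham. Both repeat the pattern of the brightest. The dimmest probe set above the floor did not, at 41.2 after 11 ECS, 49.6 after 10 ECS, 37.9 after a single ECS and 76.8 in sham (log2 -0.63 for 10 ECS over sham), and the last was below the floor on all arrays. All 4 measured probe sets of Tmsb10 have names ending in _s_at or _x_at, which Affymetrix gives to probe sets that can match several transcripts or share sequence with other genes.

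Marcksl1, a calmodulin- and actin-binding protein of the MARCKS family found in growth cones, went the other way. Its signals were 1296.3 after 11 ECS, 1061.6 after 10 ECS, 1612.2 after a single ECS and 1499.9 in sham. Both arrays of repeated ECS lay below both others, by 1.24-fold for 11 ECS against single ECS and 1.41-fold for 10 ECS against sham, short of the 1.5-fold limit. All 4 of its probe sets were lower after 10 ECS than in sham (log2 -0.75 to -0.32), but they were split for 11 ECS over single ECS (-0.85 to 0.40). These too are _s_at or _x_at probe sets.

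Igfbpl1, a secreted protein related to the insulin-like growth factor binding proteins, was 127.2 after 11 ECS, 107.3 after 10 ECS, 47.0 after a single ECS and 49.6 in sham. It had the largest ratio of the 10 genes for 11 ECS over single ECS (2.71-fold higher) and was 2.16-fold higher after 10 ECS than in sham, with 19 and 52 genes above it. Its second probe set gave 43.2 after 11 ECS, 50.1 after 10 ECS, 11.5 after a single ECS, which is below the floor, and 15.6 in sham. The pairs did not overlap there either, and the log2 ratio was at least 1.85 for 11 ECS over single ECS and 1.68 for 10 ECS over sham.

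Dcx, doublecortin, binds and stabilizes microtubules and is the usual marker of neuroblasts and immature neurons. Its signals were 136.5 after 11 ECS, 137.7 after 10 ECS, 69.1 after a single ECS and 91.1 in sham. It was 1.98-fold higher after 11 ECS than after a single ECS, whereas the 1.51-fold difference of 10 ECS over sham passed the limit barely. The single ECS array was itself 1.32-fold lower than sham, and 11 ECS stood 1.498-fold above sham, just inside the limit. A second Dcx probe set had 64.8 after 11 ECS, 71.2 after 10 ECS, 44.8 after a single ECS and 80.6 in sham. In it the sham array was the highest, so that the direction held for 11 ECS over single ECS (log2 0.53) and not for 10 ECS over sham (-0.18). With the median over its probe sets, Dcx had a log2 ratio of 0.21 for 10 ECS over sham, inside the limit. The other probe sets of Dcx were below the floor throughout.

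Dpysl3, a collapsin response mediator protein that acts on the cytoskeleton of growing axons, had a profile close to that of Dcx. Its signals were 235.8 after 11 ECS, 248.9 after 10 ECS, 121.9 after a single ECS and 183.1 in sham. It was 1.93-fold higher after 11 ECS than after a single ECS and 1.36-fold higher after 10 ECS than in sham. The single ECS array was itself 1.50-fold lower than sham, and 11 ECS stood 1.29-fold above sham, inside the limit. A second probe set was flatter in the same order of pairs, at 159.0 after 11 ECS, 153.9 after 10 ECS, 120.7 after a single ECS and 139.5 in sham. The third was dim and went against them for 11 ECS over single ECS (18.4 after 11 ECS and 27.2 after a single ECS, log2 -0.56). The median over the 3 probe sets was 0.40 for 11 ECS over single ECS, inside the limit.

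The other microtubule genes differed little. Stmn1, stathmin, which sequesters tubulin dimers and promotes microtubule disassembly, had 2493.4 after 11 ECS, 2074.1 after 10 ECS, 2205.2 after a single ECS and 2289.9 in sham, so that the highest and the lowest array were both from repeated ECS. Tubb3, the neuronal beta-tubulin long used to stain young neurons, had 534.7 after 11 ECS, 547.1 after 10 ECS, 473.2 after a single ECS and 495.4 in sham. It was 1.13-fold higher after 11 ECS than after a single ECS and 1.10-fold higher after 10 ECS than in sham, less than 1 SD between probe sets. Calb2, calretinin, a calcium-binding protein, had 385.2 after 11 ECS, 364.8 after 10 ECS, 318.7 after a single ECS and 290.1 in sham. Its differences, 1.21-fold for 11 ECS over single ECS and 1.26-fold for 10 ECS over sham, were in the same direction and about the size of that SD.

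**Figure D3:**
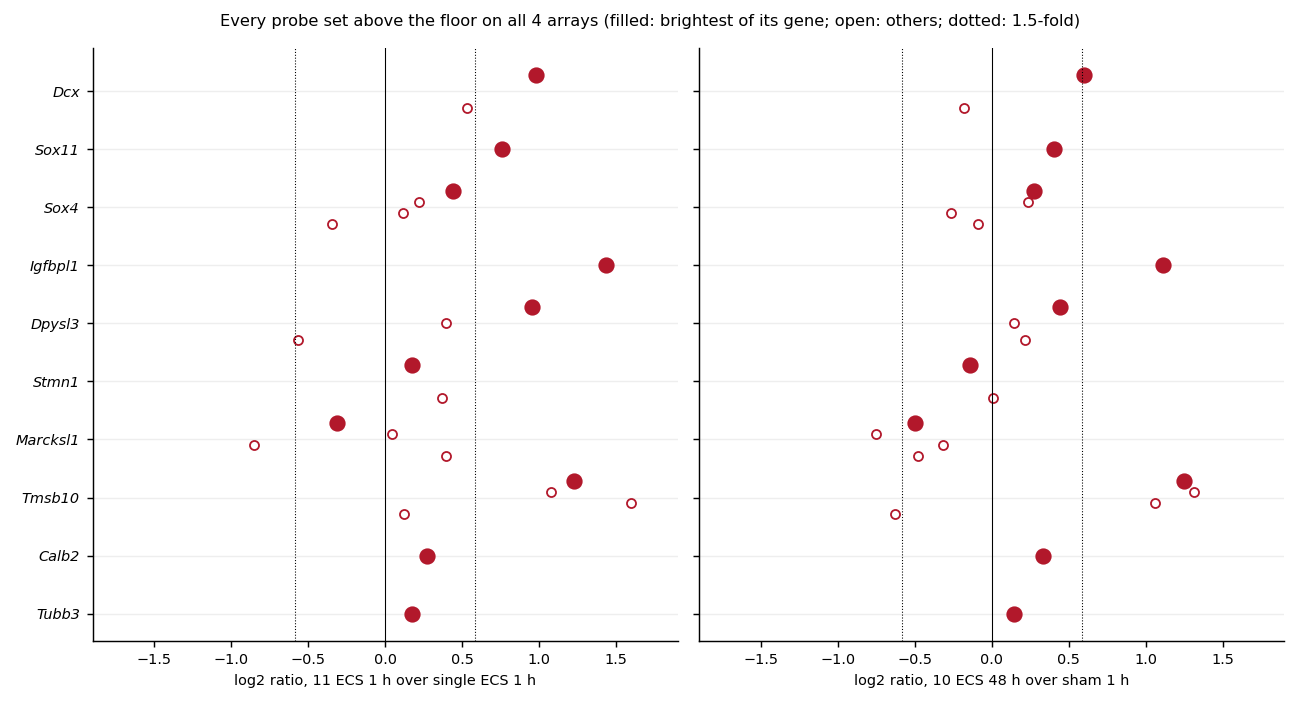
Log2 ratio of each probe set of the 10 genes that was above the floor on all 4 arrays (23 of 29), for 11 ECS over single ECS (left) and 10 ECS over sham (right), with the brightest probe set of each gene filled. Above 0 lie 19 of the 23 on the left and 14 on the right, and the widest disagreement within a gene is in Tmsb10, from -0.63 to 1.31 on the right.

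The acute response was read 1 h after a seizure, again in a pair of comparisons without a shared array, 11 ECS over 10 ECS and single ECS over sham. By brightest probe sets, Sox11 alone was at least 1.5-fold higher in each, 1 of 10 genes. The shares of all genes were 3.45% of 10046 for 11 ECS over 10 ECS and 3.05% of 10134 for single ECS over sham. Sox11 passed in both, as did 1.43% of 9730 genes. For 11 ECS over 10 ECS 0 of the 10 were at least 1.5-fold lower, against 6.9%, and for single ECS over sham Dpysl3 was, at 1.50-fold and barely past the limit, against 15.3%. Dpysl3 lay 0.35 (log2) below the median of all genes in that comparison, and with each array scaled to a common median it was inside the limit. Some dimmer probe sets passed the limit where the brightest did not. For 11 ECS over 10 ECS, Marcksl1 had log2 ratios of 0.74 (683.1 after 11 ECS and 408.8 after 10 ECS) and -0.62 by different probe sets. A Sox4 probe set, below the floor after 11 ECS, had -0.94 or lower. For single ECS over sham, dimmer probe sets of Dcx, Marcksl1 and Tmsb10 had -0.85, -0.76 and -1.02.

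Sox11 encodes an SRY-box transcription factor of neuronal precursors and immature neurons and is needed for adult neurogenesis. Its only probe set had signals of 843.0 after 11 ECS, 322.5 after 10 ECS, 498.9 after a single ECS and 243.9 in sham. It was 2.61-fold higher after 11 ECS than after 10 ECS, with 50 genes above it, and 2.05-fold higher after a single ECS than in sham, with 114 genes above it. The array 1 h after 11 ECS also exceeded that after a single ECS, 1.69-fold, while 10 ECS exceeded sham 1.32-fold. The order of arrays was therefore 11 ECS, single ECS, 10 ECS and sham, and 11 ECS stood 3.46-fold above sham. With 1 array each, whether the response to the 11th ECS (log2 1.39) differed from that to the first (1.03) was not tested.

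Sox4, its close relative of the same SoxC group, did not share this pattern. Its signals were 630.7 after 11 ECS, 756.3 after 10 ECS, 465.0 after a single ECS and 626.3 in sham, lower 1 h after the seizure in both acute comparisons (log2 -0.26 for 11 ECS over 10 ECS and -0.43 for single ECS over sham). Relative to the median of all genes, the second difference was -0.19. Repeated ECS lay above its counterpart in both comparisons of earlier ECS (1.36-fold for 11 ECS over single ECS and 1.21-fold for 10 ECS over sham), though 11 ECS and sham were almost level. The other probe sets of Sox4 were dim, and of the 4 above the floor on all arrays 3 were above 0 for 11 ECS over single ECS and 2 for 10 ECS over sham. By their brightest probe sets, the remaining 8 genes had acute log2 ratios between -0.08 and 0.29 for 11 ECS over 10 ECS. Their single ECS over sham ratios lay between -0.35 and 0.38 relative to the median of all genes.

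**Figure D4:**
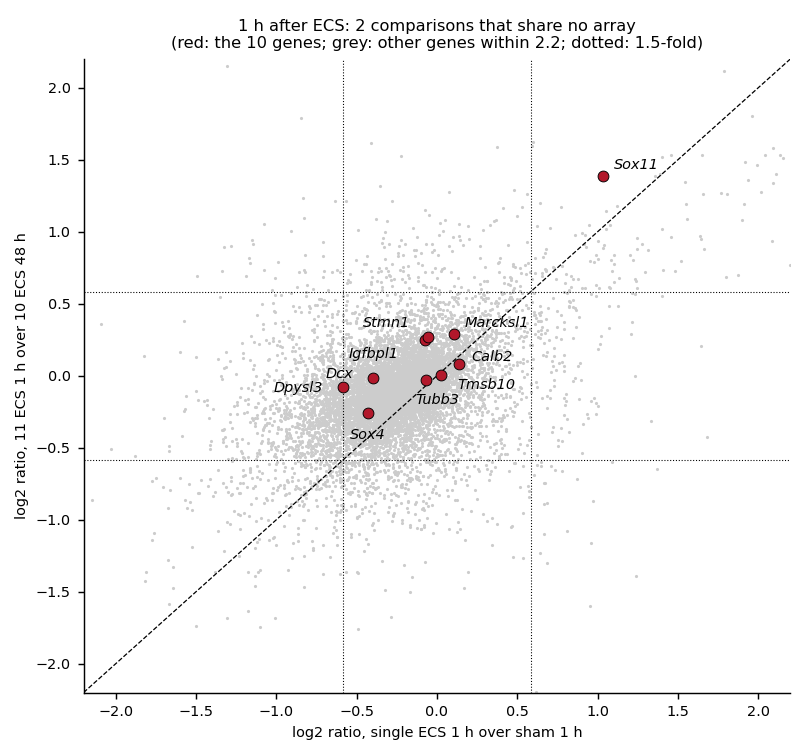
Log2 ratio of 11 ECS over 10 ECS (vertical) against that of single ECS over sham (horizontal), with 1 point per gene, the 10 genes in red and genes beyond 2.2 not drawn. Sox11 stands apart at 1.39 and 1.03, and the other 9 genes lie between -0.26 and 0.29 on the vertical axis.

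Genes were also ranked by how closely their 4 signals followed those of each member (distance between log2 profiles after centring, over the 4 arrays, among 7004 genes with signals of at least 48 on each array). Closest to Tmsb10 were Npy (distance 0.08), a neuropeptide, with 1350.0 after 11 ECS, 1320.2 after 10 ECS, 608.2 after a single ECS and 585.5 in sham, then the collagen chain Col1a2 (0.09) and Grp (0.21), gastrin-releasing peptide. Igfbpl1 lay nearer to Tmsb10 than Grp did (0.19) but was not searched, because its single ECS signal of 47.0 missed the limit of 48. Closest to Igfbpl1 were Tmsb10 (0.19), Npy (0.21) and the calcium-binding protein S100a6 (0.22). The nearest to Dcx were Bgn (0.09), the matrix proteoglycan biglycan, the protease Pcsk5 (0.14) and Dpysl3 (0.17). Dcx led in turn the list of Dpysl3, before Stard8 (0.17) and Bgn (0.19). Sox11 had no close neighbour, the nearest being Arpp21 (0.46) and the G-protein regulator Rgs4 (0.47), followed by Stxbp3 (0.63). For the other 5 genes the first neighbour lay at 0.02 to 0.04 and the third at 0.02 to 0.07. In order of distance, these were Mis18a, Ccsap and Lpin2 for Sox4, St6gal1, B4galt2 and Serf2 for Stmn1, and Dio2, Mt1 and Prelp for Marcksl1. Calb2 had Itga6, Nos3 and Ctsh, and Tubb3 had Pnoc, Etl4 and Dnase2a. The distance was not scaled by the size of the differences, so flat profiles find near neighbours more easily than steep ones. With 4 points per profile such likeness is a description.

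Most other cytoskeletal genes did not follow Tmsb10, Dcx and Dpysl3. The shares of all genes at least 1.5-fold different are repeated here for the counts below. For 11 ECS over single ECS, 4.34% were higher and 4.22% lower, and for 10 ECS over sham 2.94% and 7.16%. For 11 ECS over 10 ECS, 3.45% were higher and 6.9% lower, and for single ECS over sham 3.05% and 15.3%. Of 15 actin-side and growth cone genes, 0 passed the 1.5-fold limit in any of the 4 comparisons. Tmsb4x, the close relative of Tmsb10, had 7627.8 after 11 ECS, 7814.8 after 10 ECS, 9080.4 after a single ECS and 9135.8 in sham, slightly lower on both arrays of repeated ECS. The actin bundler Fscn1 and the capping protein Capzb also lay slightly lower in both comparisons of earlier ECS by their brightest probe sets, and Gsn, gelsolin, was higher for 11 ECS over single ECS (log2 0.52) and level for 10 ECS over sham (0.03). Of 12 other microtubule proteins of young neurons, 1 was higher and 1 lower for 11 ECS over single ECS and 0 either way for 10 ECS over sham. The higher one was Dpysl2, near the floor at 25.4 after 11 ECS and 13.9 after a single ECS. The lower one was Dpysl5, of the same family as Dpysl3, with 34.8 after 11 ECS, 36.1 after 10 ECS, 63.0 after a single ECS and 45.7 in sham. Map1b, a microtubule protein of growing axons, had 1566.8 after 11 ECS, 1661.5 after 10 ECS, 2192.2 after a single ECS and 2398.0 in sham, lower on both arrays of repeated ECS. Map6 was lower for 11 ECS over single ECS alone (log2 -0.50, against 0.06 for 10 ECS over sham).

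In contrast, Dclk1, the doublecortin-like kinase, was higher 1 h after the seizure in both acute comparisons by its brightest probe set. Its signals there were 999.2 after 11 ECS, 618.7 after 10 ECS, 1445.0 after a single ECS and 812.1 in sham. Unlike Sox11, it was lower after 11 ECS than after a single ECS (log2 -0.53). Its probe sets disagreed. Another of similar brightness was level, with 883.6 after 11 ECS, 832.6 after 10 ECS, 858.2 after a single ECS and 853.7 in sham, and a dim one was lower for single ECS over sham (log2 -0.87), while the other 3 had the direction of the brightest in both acute comparisons (0.50 to 0.61 for 11 ECS over 10 ECS and 0.89 to 1.02 for single ECS over sham). Of the 12 genes, 3 were at least 1.5-fold higher for 11 ECS over 10 ECS (Dclk1, Stmn4 and the dim Dpysl2) and 2 for single ECS over sham (Dclk1 and Stmn4), with 0 lower. Stmn4, a neuronal relative of stathmin, had 1618.2 after 11 ECS, 1063.2 after 10 ECS, 2178.5 after a single ECS and 917.6 in sham. Stmn4, Dpysl2 and the other genes of these lists that passed the limit without being among the 4 farthest from 0 were named after their values were seen.

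Tubulins other than Tubb3 were flat. Of 12 on the array, 1 was higher for 11 ECS over single ECS and 0 of 11 measured for 10 ECS over sham, and 1 was higher in each acute comparison. In all 3 cases this was Tubb6, a dim gene with 36.3 after 11 ECS, 3.0 after 10 ECS, 18.1 after a single ECS and 2.7 in sham. Tubb2b had 1653.5 after 11 ECS, 2212.9 after 10 ECS, 1462.0 after a single ECS and 1797.9 in sham. Tuba8 and Tubd1 had log2 ratios of 0.19 to 0.32 in both comparisons of earlier ECS, and Tubg1 had -0.26 for 11 ECS over single ECS and -0.02 for 10 ECS over sham. Of 7 intermediate filament genes, 2 were higher in each comparison of earlier ECS, Gfap and Vim for 11 ECS over single ECS, and Gfap and the dim Prph for 10 ECS over sham. Gfap, the filament of astrocytes and of the radial stem cells of the DG, had 135.0 after 11 ECS, 114.1 after 10 ECS, 45.6 after a single ECS and 49.3 in sham, and Vim, vimentin, 596.3 after 11 ECS, 509.2 after 10 ECS, 350.6 after a single ECS and 430.9 in sham. Both had the order of pairs seen in Igfbpl1 and Tmsb10, while Nefm and Ina did not reach the limit in either comparison.

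The 18 measured genes of the stages of neurogenesis were as divided. At least 1.5-fold higher were 2 and lower 1 for 11 ECS over single ECS, and 1 was higher and 1 lower for 10 ECS over sham. Nes, nestin, the filament of neural stem cells, was higher in the first (log2 0.61) and lower in the second (-0.68), at 45.0 after 11 ECS, 23.2 after 10 ECS, 29.4 after a single ECS and 37.1 in sham, but another Nes probe set had -0.63 in the first. Cd24a, a surface protein of neuroblasts, had 259.3 after 11 ECS, 231.6 after 10 ECS, 150.3 after a single ECS and 162.4 in sham, which is the order of pairs of Dcx. Sstr2, a somatostatin receptor, had 210.1 after 11 ECS, 140.9 after 10 ECS, 142.6 after a single ECS and 104.1 in sham. St8sia2, the higher one for 10 ECS over sham (log2 1.48), was near the floor, and its other probe set went the other way (-0.50). Last, Nnat was lower for 11 ECS over single ECS (log2 -0.69) and level for 10 ECS over sham (0.01). Cell division genes measured in each comparison of earlier ECS numbered 15. For 11 ECS over single ECS 5 were higher (Mki67, Mcm2, Ccnb2, Cdk1 and Cdc20), against 4.34% of all genes, and 0 lower, against 4.22%. For 10 ECS over sham 1 was higher, against 2.94%, and 0 lower, against 7.16%. For single ECS over sham, 5 were lower (Mcm2, Mcm6, Ccnb2, Tyms and Cdc20), against 15.3%. Mcm2, Ccnb2 and Cdc20 were in both sets of 5, and their lowest array was that of single ECS. Mcm2 had 71.6 after 11 ECS, 63.8 after 10 ECS, 34.1 after a single ECS and 84.9 in sham. The median log2 ratio of the list was 0.15 for 11 ECS over single ECS and -0.0049 for 10 ECS over sham. Most cell division genes were dim, such as Top2a at 36.7 after 11 ECS, 40.1 after 10 ECS, 24.5 after a single ECS and 32.6 in sham. Probe sets of these genes often disagreed. Ccna2 was higher for 10 ECS over sham by its brightest probe set (log2 0.63) and not by its other (-0.17), and for 11 ECS over single ECS Cdc20 had 0.93 by its brightest and -0.76 by another. Mcm6, a replicative helicase subunit, had log2 ratios below 0 in both comparisons of earlier ECS (-0.31 for 11 ECS over single ECS and -0.57 for 10 ECS over sham), and so had its other probe set.

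In the comparisons of earlier ECS, the 4 markers of mature GCs ran opposite to Dcx. For 11 ECS over single ECS 4 and for 10 ECS over sham 3 of them were at least 1.5-fold lower. In each acute comparison 3 of the 4 were as much lower too, namely Tdo2, Dsp and Il1r1. The shares of all genes there were 6.9% for 11 ECS over 10 ECS and 15.3% for single ECS over sham. Il1r1 differed most in these (log2 -1.74 for 11 ECS over 10 ECS and -1.50 for single ECS over sham). Calb1, calbindin, had 1303.6 after 11 ECS, 1507.0 after 10 ECS, 2747.1 after a single ECS and 3234.2 in sham. Tdo2, tryptophan dioxygenase, had 82.3 after 11 ECS, 158.3 after 10 ECS, 188.8 after a single ECS and 290.2 in sham. Dsp, desmoplakin, had 582.3 after 11 ECS, 992.8 after 10 ECS, 1125.4 after a single ECS and 1701.6 in sham. In these 3 genes both arrays of repeated ECS lay below both others. Il1r1, an interleukin receptor, overlapped between the pairs, with 49.4 after 11 ECS, 165.0 after 10 ECS, 85.1 after a single ECS and 241.0 in sham. These markers were chosen with earlier results on these samples known, so their direction is not independent evidence.

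**Figure D5:**
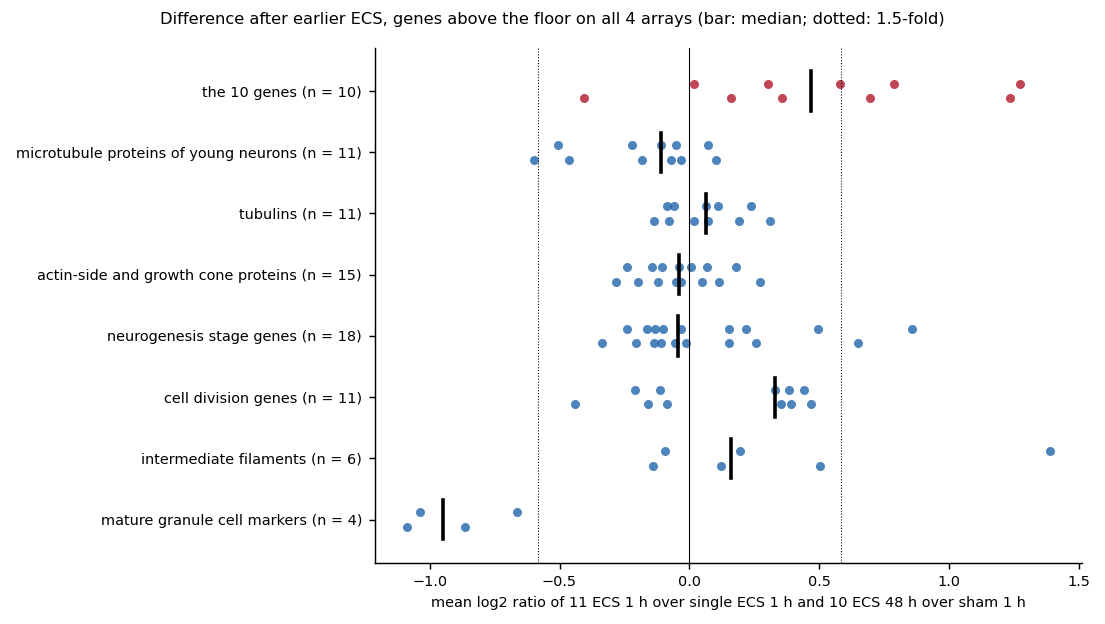
Mean of the log2 ratios of 11 ECS over single ECS and of 10 ECS over sham, with 1 point per gene above the floor on all 4 arrays and a bar at the median of each list. The 10 genes have a median of 0.47 and the mature GC markers of -0.95, while the lists of microtubule, tubulin, actin-side and neurogenesis stage genes have medians between -0.11 and 0.06, and those of intermediate filament and cell division genes medians of 0.16 and 0.33.

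Markers of other cells of the DG were set beside these results because Calb2, Tmsb10 and Stmn1 have other sources. Summed signals of 8 interneuron markers were 4734 after 11 ECS, 4621 after 10 ECS, 4862 after a single ECS and 5182 in sham, and those of 3 mossy cell markers were 122.8 after 11 ECS, 135.2 after 10 ECS, 137.9 after a single ECS and 179.0 in sham, neither sum being higher after repeated ECS. Of the mossy cell markers, Drd2 alone had the order of pairs of Dcx, at 29.4 after 11 ECS, 23.2 after 10 ECS, 18.9 after a single ECS and 12.9 in sham. The 4 Cajal-Retzius markers summed to 665.8 after 11 ECS, 687.5 after 10 ECS, 549.7 after a single ECS and 642.2 in sham. Nearly all of this sum was Reln, with 618.7 after 11 ECS, 648.4 after 10 ECS, 497.9 after a single ECS and 599.3 in sham, whereas Trp73 was lower on both arrays of repeated ECS (20.0 after 11 ECS, 20.3 after 10 ECS, 29.1 after a single ECS and 25.0 in sham) and Lhx1 and Lhx5 were near the floor. The sum of the 5 endothelial markers also had both arrays of repeated ECS above both others. It was 425.0 after 11 ECS, 436.1 after 10 ECS, 391.2 after a single ECS and 385.7 in sham, but its members were divided. Kdr, a receptor for vascular endothelial growth factor, had 54.8 after 11 ECS, 73.1 after 10 ECS, 27.7 after a single ECS and 42.6 in sham. Flt1, another receptor of that factor, lay lower on both arrays of repeated ECS, with 84.7 after 11 ECS, 107.1 after 10 ECS, 111.0 after a single ECS and 131.2 in sham. Sums of 6 astrocyte markers without Gfap were 10739 after 11 ECS, 10368 after 10 ECS, 10538 after a single ECS and 12045 in sham. Of these, Aqp4, a water channel of astrocyte endfeet, alone had the order of pairs of Dcx, with 1372.8 after 11 ECS, 1400.6 after 10 ECS, 990.5 after a single ECS and 1076.5 in sham, and its second probe set had the same order. The sums of 6 microglial markers lay between 1802 and 1946. The part of these cells in the differences of the 10 genes was not tested.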

How the data were processed

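RNA of the dissected DG, pooled from 3 mice per group, was amplified and hybridised to 1 Affymetrix Mouse Genome 430A 2.0 array per group (4 arrays). The authors deposited 1 intensity per probe set and array, a signal of the MAS5 algorithm, on a linear scale, and the scaling target and software version are not given in the sources used here. Of 22626 probe sets, 20380 carry 1 gene symbol in the platform annotation, 691 several and 1555 none, and 64 controls were left out. Signals were floored at 12, the rounded lower quartile over the 4 arrays, and compared as log2 ratios. A gene was represented by its brightest probe set and counted in a comparison if above the floor on at least 1 of its arrays. With 1 array per group no statistical test was possible. The limit for naming a difference was 1.5-fold. Alternatives were a floor of 50, a limit of 2-fold, median scaling, quantile normalization, every probe set counted, the median over probe sets and, added after the data were seen, probe sets without _s_at and _x_at and a floor of 50 with median scaling. The ratios were checked on simulated data. The members, gene lists and markers were chosen with earlier results of these data known. From each list, up to 4 genes with the mean log2 ratio of both earlier-ECS comparisons farthest from 0 were named, and for each member the 3 nearest profiles. Sequences came from RefSeq (GRCm38.p6). Analyses used Python 3.11.15, numpy 2.4.6, pandas 2.3.3 and matplotlib 3.10.9. The number of arrays limits the precision.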

Additional observations from a re-analysis of the deposited data

Results flagged for a closer look

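For 2 of the 10 genes the response to the 11th ECS and that to the first had opposite directions by the brightest probe set. Igfbpl1 had a log2 ratio of 0.25 for 11 ECS over 10 ECS and of -0.08 for single ECS over sham, a difference of 0.323. Stmn1 had 0.27 for 11 ECS over 10 ECS and -0.05 for single ECS over sham, a difference of 0.32. Each rests on 1 array per group and was not tested, and both are close to the SD of 0.27 to 0.29 between probe sets of 1 gene. With median scaling the single ECS over sham ratio was 0.22 for Igfbpl1 and 0.25 for Stmn1, and the directions were then no longer opposite. Nor were they opposite in the second probe set of either gene. Igfbpl1 had -0.21 there for 11 ECS over 10 ECS and -0.38 or lower for single ECS over sham. Stmn1 had -0.07 for 11 ECS over 10 ECS and -0.44 for single ECS over sham.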

How the results depend on the processing

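With 1 array per group no replicate could be left out. No paired analysis was possible because each group has 1 array. Of the counts and medians for the 10 genes, 100 values under the alternatives differed from those reported by at most 1.5 times (counts) or by less than the SD between probe sets of 1 gene (medians) and 13 by more. Of the single ratios, 247 differed by less than that SD and 24 by more, with 0 called directions reversed. Many of the 247 could not change. Without a floor all 40 ratios stayed the same, because the brightest probe sets lay above it on every array. Sox11, Calb2 and Tubb3 have 1 probe set, so the median over probe sets could not move them. Of the 24, median scaling gave 10 and a floor of 50 with median scaling gave 9. The tally is therefore not a measure of robustness. Differences inside that SD could still be large for a median, as the shift of the 10 genes against all genes for 11 ECS over single ECS was 0.34 with the median over probe sets (0.60 as reported), and that for single ECS over sham was -0.0015 without _s_at and _x_at probe sets (0.18 as reported). Counting probe sets in place of genes, 2 of 26 measured were higher and 2 lower for 11 ECS over 10 ECS (3.67% and 7.77% of all probe sets), 8 of 25 higher and 1 lower for 11 ECS over single ECS (4.46% and 5.39%), 8 of 26 higher and 2 lower for 10 ECS over sham (3.28% and 8.48%), 4 of 25 lower for single ECS over sham (14.9%) and 6 of 25 higher in both comparisons of earlier ECS (0.748%). The 6 higher in both comparisons are probe sets of Tmsb10, Igfbpl1 and Dcx, the same genes as in the gene count. The 8 for 11 ECS over single ECS likewise belong to Igfbpl1, Tmsb10, Dcx, Dpysl3 and Sox11. Probe set counts are thus repeated readings of few genes and not separate evidence. With a 2-fold limit, 2 genes were higher for 11 ECS over single ECS and 0 lower for single ECS over sham. The last count was also 0 with median scaling, with quantile normalization and with a floor of 50 and median scaling. With the median over probe sets, Dcx had a log2 ratio of 0.21 for 10 ECS over sham and Dpysl3 0.40 for 11 ECS over single ECS. Without _s_at and _x_at probe sets, Tmsb10 and Marcksl1 had no value. Depth in reads does not apply, and dim probe sets near the floor of 12 limit Sox4, Igfbpl1 and the cell division genes.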
